A study of Mus musculus with 24 samples.

Results

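Transcript levels of 9 receptor genes of the bone morphogenetic protein (BMP) and transforming growth factor beta (TGF-beta) family were followed across blood stem and progenitor cells of aged and young mice. The genes were Bmpr1a, Bmpr2, Acvr1, Acvr1b, Acvr2a, Tgfbr1, Tgfbr2, Tgfbr3 and Eng, taken by symbol as a fixed list from the 24421 gene lines of the deposited count table. All 9 were found, and all 9 passed the filter on low counts, among 14205 tested genes. The sorted populations were long-term stem cells of the blood (LT-HSC, CD150+ CD48-), short-term stem cells (ST-HSC, CD150- CD48-) and multipotent progenitors (MPP, CD150- CD48+), all lineage-negative, Sca1+ and Kit+, sorted after enrichment of marrow for CD117 (Kit). They came from male C57BL/6 mice, 4 of them aged (107 weeks) and 4 young (12 weeks), with no allele or treatment named in the labels. The 6 groups, aged and young LT-HSC, aged and young ST-HSC, and aged and young MPP, hold 4 bulk RNA-seq libraries each. The labels count 4 mice per age but tie no library number to a mouse. The 4 libraries of a group were treated as separate mice. The p-values rest on the spread between libraries of the same group, estimated over all 6 groups together. With 4 mice and 12 libraries per age, libraries of different populations probably share mice, which the fit, with all 24 libraries taken as independent, did not take into account in population comparisons and in differences of age changes.

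Ligands of the family bind a complex of type I and type II serine/threonine kinase receptors. The type II receptor phosphorylates the type I receptor, which phosphorylates receptor-regulated Smad proteins, Smad1, Smad5 and Smad9 in the BMP branch and Smad2 and Smad3 in the TGF-beta and activin branch, and these enter the nucleus with Smad4. Co-receptors without kinase activity, betaglycan and endoglin, bind ligand and present it to the kinases. In adult marrow TGF-beta signaling is known as a brake on stem cell division, and BMP signaling is known from the specification of blood in the embryo and from the marrow niche.

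Library totals ran from 7307151 to 12946550 counts (median 8652940), with reads for 14416 to 16103 genes each. The sort labels were followed by their marker genes. Slamf1, which encodes CD150, averaged 72.1 ± 11.7 CPM in aged LT-HSC, 26.2 ± 3.85 CPM in young LT-HSC and at most 0.789 CPM on average in the other 4 groups (mean ± SD, n = 4). Cd48 was highest in MPP, at 90.2 ± 6.42 CPM in aged cells, against 66.4 ± 2.92 CPM in young MPP. Levels are CPM, reads of a gene per library size after TMM scaling. Differences are on the log2 scale, tested with edgeR's quasi-likelihood method, and p-values are Benjamini-Hochberg adjusted over the 14205 genes and called under 0.05.

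Among the type I receptors, Bmpr1a, which encodes the BMP receptor ALK3, was higher in aged cells of each of the 3 populations. It lies on chromosome 14 (chr14:34410734-34503341, minus strand, GRCm38, GENCODE M21), with 6351 bases of merged exons. In libraries 1 to 4 its level was 59.9, 44.9, 50.1 and 46.3 CPM in aged LT-HSC, against 6.64, 2.43, 1.04 and 3.04 CPM in young LT-HSC. In ST-HSC it was 31.2, 28.4, 31.6 and 20.9 CPM in aged cells, against 0.375, 1.31, 1.04 and 1.49 CPM in young cells. In MPP it was 20.0, 15.4, 17.6 and 23.6 CPM in aged cells, against 0.345, 0.396, 0.243 and 0.120 CPM in young cells. The lowest aged library of each population thus stood above every young library, and also above the highest young library of any population. The 4 aged MPP libraries held 805 reads of Bmpr1a together, and the 4 young MPP libraries 9.

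The group means of Bmpr1a fell into one order at both ages, LT-HSC above ST-HSC above MPP, with the aged groups (50.3 ± 6.75, 28.0 ± 4.95 and 19.2 ± 3.54 CPM) above the young groups (3.29 ± 2.39, 1.06 ± 0.490 and 0.276 ± 0.122 CPM). Of neighbours in that order, libraries overlapped between aged ST-HSC and aged MPP, between young LT-HSC and young ST-HSC, and between young ST-HSC and young MPP. Young LT-HSC library 1 was the highest of its group, and without it the young LT-HSC mean was 2.17 CPM, lower by 1.52-fold. Granulocyte markers made up 0.0971% of counts in that library and 0.00290 to 0.00431% in the other 3 young LT-HSC libraries. The log2 change with age was 3.94 ± 0.32 (SE) in LT-HSC (adjusted p = 3.3e-09), 4.71 ± 0.37 in ST-HSC (adjusted p = 2.1e-08) and 6.06 ± 0.45 in MPP (adjusted p = 4e-09). By p-value it ranked 20 of 14205 genes in LT-HSC and 1 in both ST-HSC and MPP. In bulk libraries a change in the number of cells that carry a transcript and a change in its level per cell cannot be told apart.

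The RefSeq promoter window of Bmpr1a, the 250 bases before the transcript start, is shown with those of Tgfbr2 and Eng, the 3 receptors that were called with age in MPP. The sequences are from RefSeq on GRCm38.p6 and run 5′ to 3′ on the strand of the gene. Capitals mark GGCGCC, a GC-rich Smad site, and CAGAC, the Smad box, on either strand, so that CAGAC on the other strand reads GTCTG.
Bmpr1a, chr14:34502547-34502796, minus strand: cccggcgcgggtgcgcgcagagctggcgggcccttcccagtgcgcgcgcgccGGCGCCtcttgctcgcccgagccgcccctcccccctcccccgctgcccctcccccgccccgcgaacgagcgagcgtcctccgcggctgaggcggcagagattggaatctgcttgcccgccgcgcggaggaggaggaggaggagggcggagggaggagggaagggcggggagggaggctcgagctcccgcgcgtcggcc
Tgfbr2, chr9:116175364-116175613, minus strand: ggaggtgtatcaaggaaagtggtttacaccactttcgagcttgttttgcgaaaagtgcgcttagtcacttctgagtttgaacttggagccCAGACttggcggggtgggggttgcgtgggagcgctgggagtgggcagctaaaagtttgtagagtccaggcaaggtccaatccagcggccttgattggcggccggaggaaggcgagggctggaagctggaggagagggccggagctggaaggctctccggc
Eng, chr2:32646345-32646594, plus strand: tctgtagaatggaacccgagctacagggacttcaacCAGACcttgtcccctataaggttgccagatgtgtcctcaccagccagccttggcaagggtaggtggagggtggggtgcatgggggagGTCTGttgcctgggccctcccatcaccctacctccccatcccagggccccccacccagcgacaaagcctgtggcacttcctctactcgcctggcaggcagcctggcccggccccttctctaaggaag
The Bmpr1a window is 78.8% G and C with 36 CpG dinucleotides and holds 1 GGCGCC, which 9.59% of 32851 RefSeq promoter windows of the same length hold. The Tgfbr2 window (58.4% G and C, 12 CpG) holds 1 CAGAC and the Eng window (62.4%, 4 CpG) holds 2, and 42.2% of all windows hold at least 1. All windows had a median of 52.4% G and C and 6 CpG, and the shares were not matched for G and C content. Among windows not shown, the Bmpr2 window and 1 Tgfbr1 window also hold 1 GGCGCC each. The Acvr2a window and another Tgfbr1 window hold 1 CAGAC each. The RefSeq start of Bmpr1a lies inside the GENCODE span, which begins farther upstream. For 8 of the 9 receptors a window was matched by symbol, and Tgfbr3 is named only. None of the matched windows holds AGATAA, the site of the GATA family of blood factors, on either strand, and 9.99% of all windows do. The core promoter box TATAAA was not found in them either, and 12.4% of all windows hold it. These matches describe letters in the window and were not tested against the transcript levels.

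**Figure D1:**
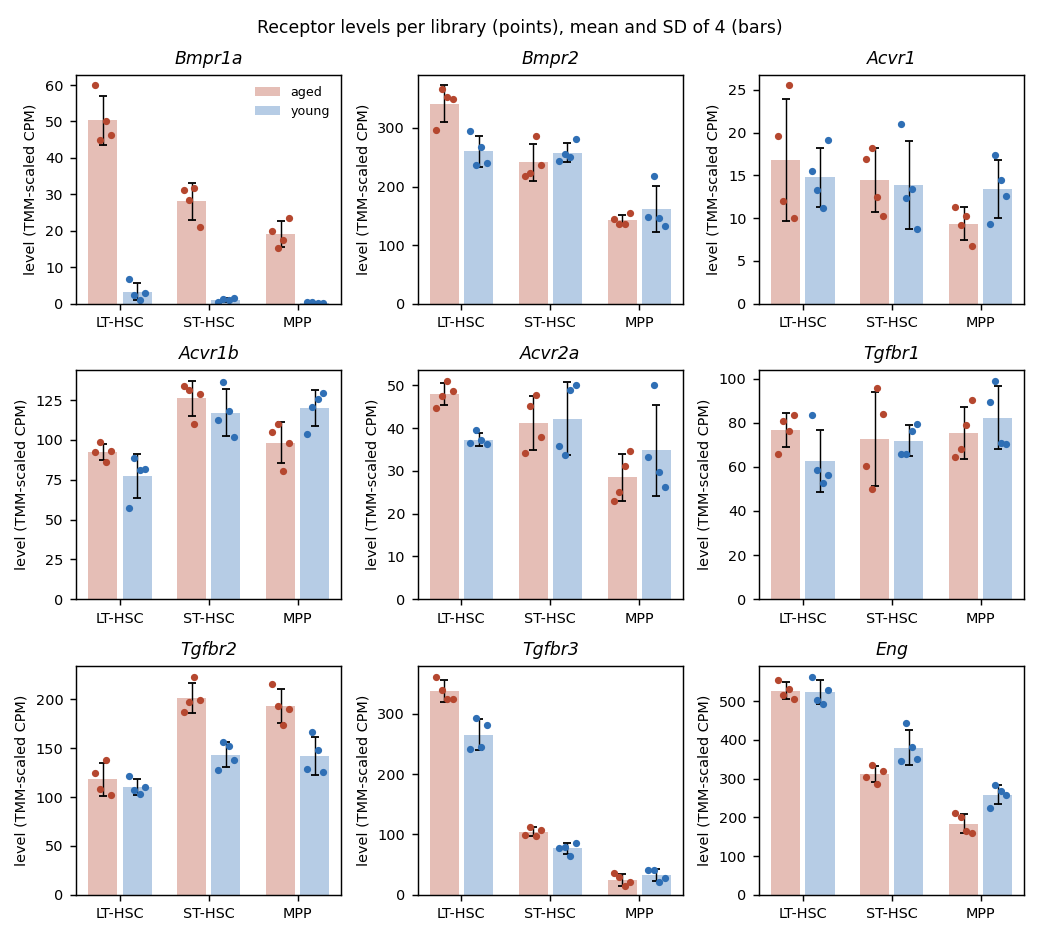
Level of each of the 9 receptor genes (TMM-scaled CPM, a linear axis from 0 in each panel) in LT-HSC, ST-HSC and MPP. Points are libraries, bars are means of 4 and error bars are SD, with aged cells left of young cells. Bmpr1a was at 50.3, 28.0 and 19.2 CPM in the aged groups and at most 3.29 CPM in the young groups, while Eng and Tgfbr3 fell with population from LT-HSC to MPP at both ages.

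The other 3 type I receptors were not called with age in any population. Acvr1b, the activin receptor ALK4 (chr15:101174067-101213684), averaged 92.4 ± 5.09 and 77.2 ± 13.8 CPM in aged and young LT-HSC, 126 ± 10.9 and 117 ± 14.5 CPM in aged and young ST-HSC, and 98.2 ± 13.0 and 120 ± 11.4 CPM in aged and young MPP. Its age difference was 0.26 ± 0.12 in LT-HSC (adjusted p = 0.13), 0.11 ± 0.12 in ST-HSC (0.67) and -0.29 ± 0.12 in MPP (0.12), and libraries of the 2 ages overlapped in each. Tgfbr1, the TGF-beta receptor ALK5 (chr4:47353222-47414931), was at 76.5 ± 7.76 and 62.8 ± 14.1 CPM in aged and young LT-HSC, 72.5 ± 21.1 and 71.8 ± 6.99 CPM in aged and young ST-HSC, and 75.3 ± 11.6 and 82.3 ± 14.2 CPM in aged and young MPP. The age difference of Tgfbr1 in LT-HSC was 0.29 ± 0.17 (adjusted p = 0.27), and it was 0.46 (adjusted p = 0.023) without 3 libraries doubted in an earlier analysis of these data, aged ST-HSC 2 and 3 and young LT-HSC 1. Acvr1, the BMP and activin receptor ALK2 (chr2:58388644-58567157), was low everywhere, at 16.8 ± 7.14 and 14.8 ± 3.43 CPM in aged and young LT-HSC, 14.4 ± 3.72 and 13.9 ± 5.17 CPM in aged and young ST-HSC, and 9.37 ± 1.96 and 13.4 ± 3.41 CPM in aged and young MPP. Libraries of the ages overlapped for Acvr1 and Tgfbr1 in every population.

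Levels of different receptors were compared per kilobase of merged exons. On this scale, CPM per kilobase, the 4 type I receptors followed here summed to 44.0 ± 0.570 in aged and 30.7 ± 1.52 in young LT-HSC, 47.1 ± 0.999 and 40.6 ± 2.74 in aged and young ST-HSC, and 38.7 ± 2.55 and 42.6 ± 2.84 in aged and young MPP. Bmpr1a made up 18.0 ± 2.29% of that sum in aged LT-HSC and 1.69 ± 1.26% in young LT-HSC. Its share was 9.39 ± 1.66% in aged and 0.412 ± 0.202% in young ST-HSC, and 7.79 ± 1.23% in aged and 0.102 ± 0.0444% in young MPP. Acvr1b held the largest share of this 4-gene sum in all 6 groups, between 47.5 ± 2.79% in aged LT-HSC and 65.2 ± 3.77% in young ST-HSC. Acvrl1, another type I receptor gene of the family that passed the filter on low counts, is not in the sum. The shares are thus of these 4 genes and not of all type I receptors. Ranked per kilobase among the 9 receptors, Bmpr1a was the lowest in the 3 young groups and eighth in the 3 aged groups, where Acvr1 was the lowest. With the longest transcript in place of merged exons 10 ranks moved, each by 1 place.

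**Figure D2:**
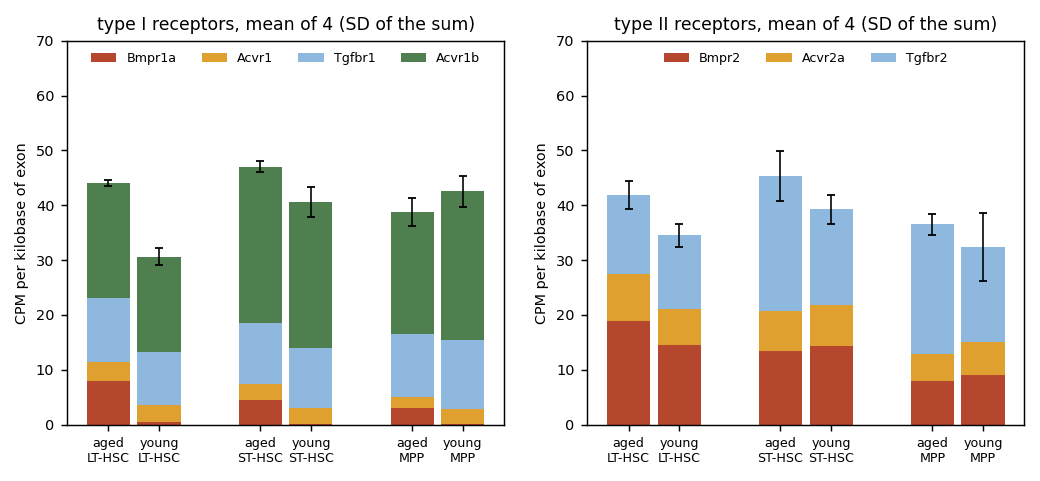
Summed levels of the type I receptors Bmpr1a, Acvr1, Tgfbr1 and Acvr1b (left panel) and the type II receptors Bmpr2, Acvr2a and Tgfbr2 (right panel) in CPM per kilobase of exon, on a linear axis from 0. Stacked colours are means of 4 libraries per gene, error bars are the SD of the sum, and each aged group stands left of its young group. The Bmpr1a part is visible in the 3 aged groups (18.0%, 9.39% and 7.79% of the left panel's sum in LT-HSC, ST-HSC and MPP).

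Among the type II receptors, Tgfbr2, which binds TGF-beta directly and activates Tgfbr1, was higher in aged ST-HSC and aged MPP. It lies at chr9:116084293-116175360 on the minus strand. Its level in libraries 1 to 4 was 187, 197, 223 and 200 CPM in aged ST-HSC, against 128, 156, 152 and 137 CPM in young ST-HSC. In MPP it was 215, 193, 173 and 191 CPM in aged cells, against 128, 167, 148 and 125 CPM in young cells. Aged libraries stood above all young libraries in both populations. In LT-HSC the ages overlapped, at 118 ± 16.6 CPM in aged cells and 111 ± 7.98 CPM in young cells. The log2 change was 0.49 ± 0.10 in ST-HSC (adjusted p = 0.0039), 0.44 ± 0.10 in MPP (adjusted p = 0.0056) and 0.09 ± 0.10 in LT-HSC (adjusted p = 0.58). Without the 3 doubted libraries the ST-HSC change was 0.43 (adjusted p = 0.055). Whether the age change of Tgfbr2 differed between populations was tested too, and the difference was -0.40 ± 0.14 for LT-HSC minus ST-HSC (adjusted p = 0.12) and -0.35 ± 0.14 for LT-HSC minus MPP (adjusted p = 0.13).

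Bmpr2, the type II receptor for BMPs (chr1:59763400-59879014), was higher in aged LT-HSC. Its level there was 296, 367, 352 and 350 CPM, against 295, 237, 267 and 240 CPM in young LT-HSC. The ages did not overlap, though the lowest aged library (296 CPM) and the highest young library (295 CPM) were close, and the log2 change was 0.39 ± 0.12 (adjusted p = 0.017). The call was lost when any of 4 libraries was left out, aged LT-HSC 2 (adjusted p = 0.065), aged LT-HSC 3 (0.053), young LT-HSC 2 (0.068) or young LT-HSC 4 (0.067). In ST-HSC Bmpr2 was at 241 ± 31.4 CPM in aged cells, against 258 ± 16.0 CPM in young cells (-0.09 ± 0.12, adjusted p = 0.71), and in MPP at 143 ± 8.88 CPM in aged cells, against 161 ± 38.8 CPM in young cells (-0.18 ± 0.12, adjusted p = 0.38). Acvr2a, an activin and BMP type II receptor (chr2:48814109-48903269), was at 44.8, 47.6, 51.0 and 48.7 CPM in aged LT-HSC, against 36.4, 39.5, 37.2 and 36.2 CPM in young LT-HSC. The ages did not overlap, but the change of 0.36 ± 0.17 was not called (adjusted p = 0.14), except in a fit to the LT-HSC libraries alone (adjusted p = 0.036). Acvr2a overlapped between ages in ST-HSC (41.3 ± 6.31 and 42.2 ± 8.54 CPM in aged and young cells) and MPP (28.5 ± 5.43 and 34.8 ± 10.6 CPM in aged and young cells).

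Per kilobase, Tgfbr2 made up 34.4 ± 3.94% of the sum of Bmpr2, Acvr2a and Tgfbr2 in aged and 39.1 ± 1.53% in young LT-HSC. That share was 54.5 ± 1.27% in aged and 44.6 ± 3.24% in young ST-HSC, and 64.5 ± 3.51% in aged and 53.9 ± 3.66% in young MPP. Bmpr2 took the largest share of that sum in LT-HSC, 45.4 ± 3.53% in aged and 41.8 ± 2.17% in young cells, and 21.7 ± 0.780% in aged and 27.5 ± 1.45% in young MPP. The shares depend on the length used, and Bmpr2 has 17983 bases of merged exons but 12899 in its longest transcript. Per kilobase of the longest transcript, young ST-HSC had 20.0 of Bmpr2 and 17.7 of Tgfbr2, against 14.3 and 17.5 on merged exons. Acvr2b, another activin type II receptor gene, is not in the sum, and averaged 11.6 to 14.3 CPM in the aged groups and 12.8 to 14.5 CPM in the young groups.

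Of the co-receptors, Eng, which encodes endoglin (chr2:32646595-32682669), was lower in aged MPP. In libraries 1 to 4 its level was 210, 200, 164 and 160 CPM in aged MPP, against 225, 285, 269 and 257 CPM in young MPP. In ST-HSC it was 304, 335, 287 and 320 CPM in aged cells, against 346, 443, 381 and 350 CPM in young cells. In both populations every aged library lay below every young library. The MPP change was -0.49 ± 0.09 (adjusted p = 0.00085) and the ST-HSC change -0.29 ± 0.09 (adjusted p = 0.063, and 0.038 with DESeq2). LT-HSC libraries overlapped, at 528 ± 21.9 CPM in aged cells, against 523 ± 31.2 CPM in young cells (0.01 ± 0.09, adjusted p = 0.95). Per kilobase Eng had the highest level of the 9 receptors in all 6 groups, between 45.4 ± 6.24 CPM per kilobase in aged MPP and 130 ± 5.40 CPM per kilobase in aged LT-HSC.

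Tgfbr3, which encodes betaglycan (chr5:107106570-107289629), was not called with age. Its level was 362, 340, 324 and 325 CPM in aged LT-HSC, against 242, 293, 246 and 282 CPM in young LT-HSC, and 98.3, 113, 98.2 and 108 CPM in aged ST-HSC, against 78.2, 79.7, 64.5 and 86.3 CPM in young ST-HSC. Aged libraries stood above all young ones in both. The changes were 0.35 ± 0.19 in LT-HSC (adjusted p = 0.24) and 0.44 ± 0.20 in ST-HSC (adjusted p = 0.23). In a fit to only the 2 groups compared both were called (adjusted p = 0.008 and 0.034), and with limma-voom the LT-HSC change was called (adjusted p = 0.041). In MPP Tgfbr3 was at 25.1 ± 9.80 CPM in aged cells, against 32.4 ± 9.86 CPM in young cells (-0.37 ± 0.22, adjusted p = 0.32).

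**Figure D3:**
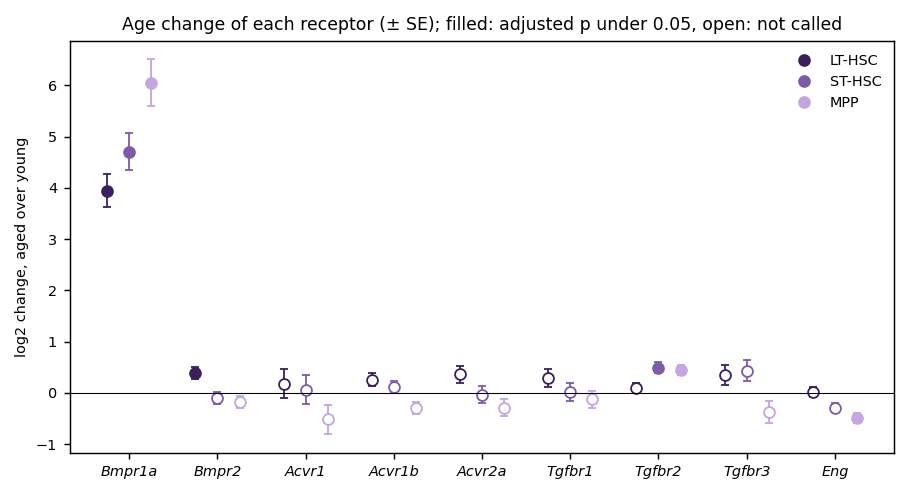
Log2 change, aged over young, of each receptor in LT-HSC, ST-HSC and MPP, with the SE of the fit. Filled points had an adjusted p under 0.05 and open points were not called. Bmpr1a stands at 3.94, 4.71 and 6.06, and no other receptor lies beyond 0.52 on this scale in either direction.

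Counted by comparison, 2 of the 9 receptors were higher and none was lower in aged LT-HSC, where 9.98% of all tested genes were higher and 8.87% lower. In aged ST-HSC 2 were higher and none was lower, beside 3.58% and 2.21% of all genes. In aged MPP 2 were higher and 1 was lower, beside 5.53% and 4.27% of all genes. The receptors' median change was 0.29 in LT-HSC, 0.06 in ST-HSC and -0.29 in MPP, beside medians of 0.00, 0.01 and 0.00 over all genes. All 4 aged libraries lay above all 4 young ones for Bmpr1a, Bmpr2, Acvr2a and Tgfbr3 in LT-HSC (12.5% of all genes above, 9.62% below), for Bmpr1a, Tgfbr2 and Tgfbr3 in ST-HSC (5.94%), and for Bmpr1a and Tgfbr2 in MPP (8.83%). They lay below for Eng in ST-HSC (4.98% of all genes) and MPP (7.64%).

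Whether age changes differed between populations was tested as a difference of log2 changes. For LT-HSC minus MPP 4 receptors were called, where 9.93% of all genes were. Bmpr1a differed by -2.11 ± 0.62 (adjusted p = 0.029), with a smaller rise on the log2 scale in LT-HSC than in MPP. In CPM the gap between the ages was wider in LT-HSC, with means of 50.3 in aged and 3.29 in young cells. In MPP the means were 19.2 CPM in aged and 0.276 CPM in young cells. Eng differed by 0.51 ± 0.13 (adjusted p = 0.012), Bmpr2 by 0.57 ± 0.17 (adjusted p = 0.027) and Acvr1b by 0.55 ± 0.17 (adjusted p = 0.036). Bmpr1a had 125 reads over the 4 young LT-HSC libraries and 9 over the 4 young MPP libraries. Its difference was -1.55 (adjusted p = 0.051) without young LT-HSC library 1, -2.08 (0.06) without young MPP library 3, -1.87 (0.077) without young MPP library 4 and -1.69 (0.26) with limma-voom. The Bmpr2 call was lost without any 1 of 8 of the 16 libraries and the Acvr1b call without any 1 of 11 of them, and also with no count filter (adjusted p = 0.054) or in a fit to those groups alone (0.053), while the Eng call was kept under every alternative run. For LT-HSC minus ST-HSC no receptor was called with edgeR, DESeq2 or limma-voom, where 4.05% of all genes were called with edgeR. There 3 receptors (Bmpr2, Tgfbr2 and Eng) had an unadjusted p under 0.05, beside 18.1% of all genes. For ST-HSC minus MPP none was called with any of the 3 tools, where 0.465% of all genes were called with edgeR. There 2 receptors (Acvr1b and Tgfbr3) had an unadjusted p under 0.05, beside 8.62% of all genes.

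Between populations, both co-receptors were higher in LT-HSC than in ST-HSC and higher in ST-HSC than in MPP, at both ages. Tgfbr3 was higher in LT-HSC than in ST-HSC by 1.70 ± 0.20 in aged and 1.78 ± 0.20 in young cells (adjusted p = 1.1e-06 and 1.9e-06), and higher in ST-HSC than in MPP by 2.05 ± 0.21 in aged and 1.25 ± 0.21 in young cells (adjusted p = 3.8e-07 and 0.00025). Eng was higher in LT-HSC than in ST-HSC by 0.76 ± 0.09 in aged and 0.46 ± 0.09 in young cells (adjusted p = 2.8e-07 and 0.00072), and higher in ST-HSC than in MPP by 0.76 ± 0.09 in aged and 0.55 ± 0.09 in young cells (adjusted p = 6.6e-07 and 0.0001). For both genes all 4 libraries of one population stood above all 4 of the next at either age. That held for 15.5% of all genes between aged LT-HSC and aged ST-HSC, 9.63% between the young ones, 13.0% between aged ST-HSC and aged MPP, and 12.1% between the young ones.

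Bmpr2 set LT-HSC apart from ST-HSC in aged cells (0.50 ± 0.12, adjusted p = 0.0014) but was not called between them in young cells (0.01 ± 0.12, adjusted p = 0.97). It was higher in ST-HSC than in MPP at both ages, by 0.76 ± 0.12 in aged and 0.67 ± 0.12 in young cells (adjusted p = 2.2e-05 and 0.00017). Bmpr1a was higher in LT-HSC than in MPP by 1.39 ± 0.28 in aged and 3.50 ± 0.51 in young cells (adjusted p = 0.00014 and 5.8e-06). It was also higher in LT-HSC than in ST-HSC, by 0.84 ± 0.27 in aged cells (adjusted p = 0.02) and 1.61 ± 0.40 in young cells (adjusted p = 0.0064). The aged call was lost without aged LT-HSC library 1 (adjusted p = 0.066) or aged ST-HSC library 4 (0.072). The young difference was 1.05 (adjusted p = 0.054) without young LT-HSC library 1, and it was not called with limma-voom (adjusted p = 0.17) or in a fit to those groups alone (0.08). Bmpr1a was higher in young ST-HSC than in young MPP too (1.90 ± 0.61, adjusted p = 0.027), a call that 7 alternatives lost, and the same step in aged cells was 0.55 ± 0.28 (adjusted p = 0.14, and 0.018 with limma-voom).

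A pair of receptors ran the other way. Tgfbr2 was lower in LT-HSC than in ST-HSC by -0.77 ± 0.10 in aged and -0.38 ± 0.10 in young cells (adjusted p = 1.2e-06 and 0.013), and lower in LT-HSC than in MPP by -0.71 ± 0.10 in aged and -0.36 ± 0.10 in young cells (adjusted p = 1.4e-06 and 0.0063). The young LT-HSC and ST-HSC call was lost without young LT-HSC library 3 (adjusted p = 0.061) or young ST-HSC library 2 (0.069) or 3 (0.062). ST-HSC and MPP were not called apart in Tgfbr2 at either age (0.06 ± 0.10 in aged cells, adjusted p = 0.68, and 0.01 ± 0.10 in young cells, adjusted p = 0.95). Acvr1b was lower in LT-HSC than in ST-HSC by -0.45 ± 0.12 in aged and -0.60 ± 0.12 in young cells (adjusted p = 0.0042 and 0.00064), and lower in LT-HSC than in MPP in young cells (-0.63 ± 0.12, adjusted p = 0.00012). Acvr1b was also higher in aged ST-HSC than in aged MPP (0.36 ± 0.12, adjusted p = 0.021), and that call was lost without aged ST-HSC library 1 or 2 or aged MPP library 3 (adjusted p between 0.056 and 0.1). Acvr2a was higher in aged LT-HSC than in aged MPP (0.75 ± 0.17, adjusted p = 0.00046) and in aged ST-HSC than in aged MPP (0.53 ± 0.17, adjusted p = 0.019). The second of these was lost in 5 alternatives. Acvr1 was called once, higher in aged LT-HSC than in aged MPP (0.84 ± 0.29, adjusted p = 0.015), and not without aged LT-HSC library 3 (0.55, adjusted p = 0.11) or aged MPP library 4 (adjusted p = 0.057). Tgfbr1 was not called between populations, and was lower in young LT-HSC than in young MPP without young LT-HSC library 1 (-0.56, adjusted p = 0.014).

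**Figure D4:**
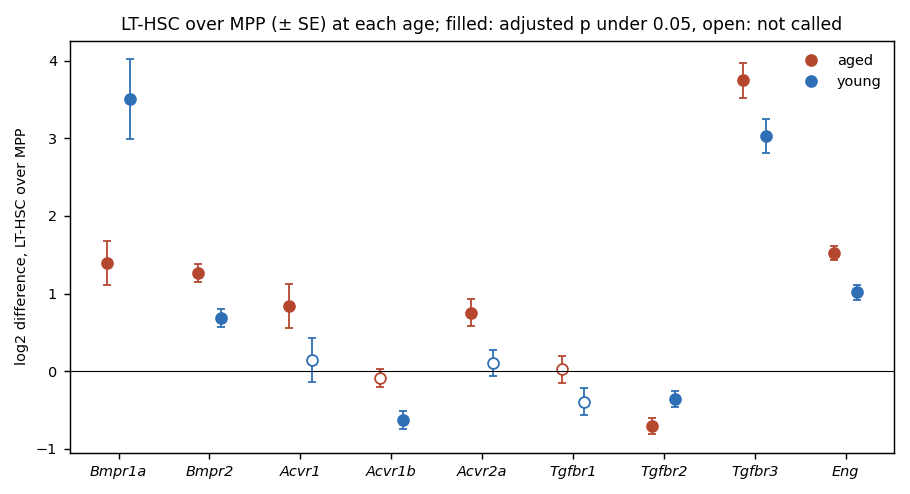
Log2 difference, LT-HSC over MPP, of each receptor in aged cells (left point of each pair) and young cells (right point), with the SE of the fit. Filled points had an adjusted p under 0.05 and open points were not called. Tgfbr3 stands at 3.75 in aged and 3.03 in young cells, and Tgfbr2 lies below 0 at both ages.

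In counts, aged LT-HSC had 4 receptors higher and 2 lower than aged ST-HSC, beside 16.2% higher and 16.1% lower of all genes. Young LT-HSC had 3 higher and 2 lower than young ST-HSC, beside 6.79% and 5.74% of all genes. Aged ST-HSC had 5 higher and none lower than aged MPP, beside 15.5% and 14.4%, and young ST-HSC had 4 higher and none lower than young MPP, beside 10.5% and 10.1%. Aged LT-HSC had 6 higher and 1 lower than aged MPP, beside 28.3% and 28.5%, and young LT-HSC had 4 higher and 2 lower than young MPP, beside 18.9% and 18.3%. These comparisons share libraries with each other and with the age comparisons.

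Marker lists moved with age beside some of these receptors. Their counts of called genes stand beside the shares of all tested genes. Those were 9.98% higher and 8.87% lower with age in LT-HSC, 3.58% and 2.21% in ST-HSC, and 5.53% and 4.27% in MPP. Summed markers of endothelial cells, which also carry endoglin, made up 0.0208 to 0.0252% of counts in aged and 0.0133 to 0.0173% in young LT-HSC, 0.00408 to 0.0208% in aged and 0.00570 to 0.0149% in young ST-HSC, and 0.00304 to 0.00832% in aged and 0.00491 to 0.00740% in young MPP. Of their 8 tested genes (9 listed), 2 were higher in aged LT-HSC, 1 was lower in aged ST-HSC, and 1 was higher and 2 lower in aged MPP. Their defining gene Cdh5, which encodes VE-cadherin, averaged at most 1.51 CPM in any group and had no read in young ST-HSC. Marrow stromal markers made up 0.00372 to 0.00648% in aged and 0.00255 to 0.00412% in young LT-HSC, 0.0145 to 0.0179% in aged and 0.00711 to 0.0276% in young ST-HSC, and 0.0209 to 0.0279% in aged and 0.0180 to 0.0609% in young MPP. Of 5 tested (9 listed), 1, Pdgfrb, which encodes a platelet-derived growth factor receptor, was called higher with age in each population, as Bmpr1a was, by 1.27 ± 0.14 in LT-HSC (adjusted p = 4.3e-07), 1.15 ± 0.13 in ST-HSC (5.1e-06) and 0.49 ± 0.13 in MPP (0.012). Of the other stromal genes, Col3a1 had no read in aged cells of any population and none in young LT-HSC. Cxcl12 averaged at most 0.690 CPM in aged groups, against 4.94 to 88.0 CPM in young groups, each of which had most of it in 1 library. Cxcl12 was not called with age in any population, and its libraries overlapped between the ages in each. Stem cell and sort markers made up 0.369 to 0.393% in aged and 0.319 to 0.351% in young LT-HSC, where Bmpr1a and Bmpr2 were higher, and 4 of the 9 (Slamf1, Kit, Procr and Mecom) were called higher there and 3 (Cd48, Flt3 and Cd34) lower. They made up 0.387 to 0.469% in aged and 0.417 to 0.449% in young ST-HSC, with none of the 9 called. In MPP they made up 0.249 to 0.297% in aged and 0.309 to 0.349% in young cells, where Eng was lower, and 3 of the 9 (Procr, Mecom and Hlf) were called lower there and 1 (Ly6a) higher. Granulocyte markers made up 0.0171 to 0.309% in aged and 0.00874 to 0.0340% in young ST-HSC, with 3 of 8 tested (9 listed) called higher, monocyte and macrophage markers 0.0101 to 0.0448% in aged and 0.000736 to 0.00323% in young ST-HSC, with 2 of 9 called higher, and B and plasma cell markers 0.182 to 0.873% in aged and 0.00395 to 0.0339% in young MPP, with 4 of 7 tested (8 listed) called higher. Megakaryocyte markers made up 0.0136 to 0.0164% in aged and 0.00848 to 0.0103% in young ST-HSC, and 0.00894 to 0.0129% in aged and 0.00735 to 0.00770% in young MPP, with 1 of 7 tested (8 listed) called higher in ST-HSC and 2 higher and 1 lower in MPP. ST-HSC and MPP are the populations in which Tgfbr2 was higher. In MPP granulocyte markers overlapped between the ages (0.150 to 0.540% in aged and 0.0759 to 0.325% in young cells), with none called. Monocyte and macrophage markers overlapped there too (0.0211 to 0.0575% in aged and 0.00246 to 0.0223% in young cells), with 1 of 9 called higher. In ST-HSC B and plasma cell markers made up 0.00189 to 0.0366% in aged and 0.00189 to 0.00238% in young cells, with none called. T and NK cell markers made up 0.00681 to 0.0112% in aged and 0.00112 to 0.00168% in young LT-HSC. There, 1 of 2 tested (9 listed) was called higher. Their aged and young libraries overlapped in ST-HSC (none called) and in MPP (1 of 2 called higher). Ctsg, a granule protease gene, had no read in aged LT-HSC, and the B cell genes Ms4a1 and Pax5 had none in LT-HSC and ST-HSC of either age. The part of these lists in the receptor results was not tested.

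Profiles over the 6 groups were compared for the 4 receptors whose group means spanned at least 1 log2 unit, by the root mean square difference of mean-centred log2 group means, over 10708 genes of at least 5 CPM on average. For Bmpr1a, whose means spanned 6.03 log2 units, the closest were the peptide transporter gene Slc15a2 (0.544), Sema6d (0.987) and the cytokine signaling inhibitor Socs3 (1.00). Slc15a2 averaged 108 ± 87.3 CPM in aged LT-HSC, against 4.24 ± 4.84 CPM in young LT-HSC, a far wider spread between libraries than that of Bmpr1a. For Tgfbr3 the closest were Mmrn1 (0.157), Sema7a (0.188) and Pdzk1ip1 (0.212), and Mmrn1 averaged 514 ± 13.1 and 356 ± 54.0 CPM in aged and young LT-HSC and 28.3 ± 6.59 and 44.4 ± 3.68 CPM in aged and young MPP. For Bmpr2 they were Mr1 (0.0389), Ltbp3 (0.0415), which encodes a protein that stores latent TGF-beta, and Akap7 (0.0488). For Eng they were Pard3b (0.0559), Stk39 (0.0607) and Cbx6 (0.0639). These values describe likeness of 6 means and carry no test.

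Other genes of the pathway were read from lists, and their counts stand beside the shares of all tested genes called with age, 9.98% higher and 8.87% lower in LT-HSC, 3.58% and 2.21% in ST-HSC, and 5.53% and 4.27% in MPP. Of 5 tested among 11 other receptors of the family, 1 was higher and 1 lower in aged LT-HSC, none was called in ST-HSC, and 1 was higher in aged MPP. Neo1, which encodes neogenin, a receptor for repulsive guidance molecules that act as BMP co-receptors, was at 128 ± 28.2 CPM in aged LT-HSC, against 26.6 ± 19.9 CPM in young LT-HSC (2.27 ± 0.48, adjusted p = 0.0023, and 2.93 without young LT-HSC library 1). Cfc1, a Nodal co-receptor gene, was near 0 at 0.142 ± 0.107 CPM in aged LT-HSC, against 1.05 ± 0.627 CPM in young LT-HSC (-2.75 ± 0.83, adjusted p = 0.02, lost in 4 alternatives). Rgmb, a BMP co-receptor gene, was at 3.10 ± 1.05 CPM in aged MPP, against 0.764 ± 0.714 CPM in young MPP (1.97 ± 0.47, adjusted p = 0.0079). Without young MPP library 1 the Rgmb change was 2.74, and it was not called with limma-voom (adjusted p = 0.06) or in a fit to MPP alone (0.071). Bmpr1b, the other BMP type I receptor of its class, had no read in any library, and a count of 0 allows up to 3 reads in a library.

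Of the ligands, 1 of 5 tested BMP and GDF genes (13 listed) was higher in aged LT-HSC and none in the other populations. That gene was Bmp4, at 17.8, 24.6, 16.3 and 20.9 CPM in aged LT-HSC, against 2.14, 3.45, 3.65 and 2.81 CPM in young LT-HSC, a change of 2.72 ± 0.66 (adjusted p = 0.0048) with no overlap of libraries. Of 8 tested TGF-beta and activin genes (16 listed), 1 was higher in LT-HSC, 1 higher in ST-HSC, and 2 higher and 1 lower in MPP. Tgfb3 was the one in LT-HSC, at 17.7 ± 5.47 CPM in aged cells and 7.46 ± 1.18 CPM in young cells (1.24 ± 0.31, adjusted p = 0.0056), and in ST-HSC, at 4.70 ± 0.940 CPM in aged cells and 1.73 ± 1.04 CPM in young cells (1.46 ± 0.35, adjusted p = 0.012, lost in 2 alternatives). In MPP, Tgfb1, the main TGF-beta of blood cells, was at 292 ± 28.8 CPM in aged cells, against 218 ± 8.19 CPM in young cells (0.42 ± 0.08, adjusted p = 0.0016). Inha, the inhibin alpha chain, was lower in aged MPP (-2.45 ± 0.43, adjusted p = 0.0004), and Gdf3 was higher (2.35 ± 0.65, adjusted p = 0.021), by 4.52 without young MPP library 4, with the call lost in 3 alternatives.

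Among genes that store or block ligand, Ltbp4, a latent TGF-beta binding protein gene, was higher in aged LT-HSC (41.3 ± 5.97 against 23.3 ± 4.74 CPM in young cells, 0.82 ± 0.27, adjusted p = 0.031, lost in 5 alternatives). It was the 1 called of 8 tested storage and activation genes (11 listed) there, and none was called in ST-HSC or MPP. Fstl1, a secreted antagonist of the family, was at 1.61 ± 0.562 CPM in aged MPP, against 8.59 ± 4.70 CPM in young MPP (-2.41 ± 0.29, adjusted p = 3.8e-06). It was the 1 called of 4 tested antagonists (16 listed), and none was called in LT-HSC or ST-HSC.

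Of the 6 Smads that carry the signal, 5 were tested. Smad1, of the BMP branch, was at 103, 97.4, 92.7 and 88.7 CPM in aged LT-HSC, against 53.0, 58.0, 58.7 and 63.1 CPM in young LT-HSC, a change of 0.71 ± 0.10 (adjusted p = 9.5e-06). It was also higher in aged ST-HSC (71.3, 95.7, 77.3 and 67.1 CPM, against 60.9, 60.2, 55.7 and 56.5 CPM in young ST-HSC, a change of 0.41 ± 0.10, adjusted p = 0.013), a call lost in 3 alternatives. Libraries of the ages did not overlap for Smad1 in any of the 3 populations, though the MPP change was not called. Smad3, of the TGF-beta branch, was higher in aged LT-HSC by 0.27 ± 0.08 (adjusted p = 0.027, lost in 6 alternatives), and Smad5 was lower in aged MPP by -0.38 ± 0.10 (adjusted p = 0.0099, and 0.068 without young MPP library 2). In counts, 2 of the 5 were higher in LT-HSC, 1 was higher in ST-HSC and 1 was lower in MPP.

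Inside the cell, all 14 listed inhibitors and adaptors were tested, and 3 were higher and 3 lower in LT-HSC, 2 higher in ST-HSC, and 2 higher and 2 lower in MPP. Skil, a Smad corepressor gene, was at 140 ± 27.9 CPM in aged LT-HSC, against 69.1 ± 5.78 CPM in young LT-HSC (1.02 ± 0.16, adjusted p = 6.2e-05), 93.5 ± 7.22 and 64.0 ± 11.3 CPM in aged and young ST-HSC (0.55 ± 0.16, adjusted p = 0.044) and 72.3 ± 17.3 and 46.2 ± 9.58 CPM in aged and young MPP (0.65 ± 0.16, adjusted p = 0.012). The ST-HSC call of Skil was lost in 9 alternatives and the MPP call without aged MPP library 4. Smad7, which blocks receptors of both branches, was higher in aged cells by 0.69 ± 0.14 in LT-HSC (adjusted p = 0.00064), 0.54 ± 0.14 in ST-HSC (adjusted p = 0.017, lost in 2 alternatives) and 0.46 ± 0.13 in MPP (adjusted p = 0.026, lost in 4). Neither Smad7 nor Skil overlapped between the ages in any population. Bambi, a pseudoreceptor that lacks a kinase, was higher in aged LT-HSC (16.4 ± 2.69 against 7.80 ± 2.26 CPM in young cells, adjusted p = 0.0043). The lower genes of LT-HSC were Smad6, Ldlrad4 and Pmepa1 (-1.07, -0.87 and -1.67, adjusted p = 0.0091, 0.0045 and 0.035), the last lost in 7 alternatives. Those of MPP were Ski (-0.40, adjusted p = 0.029, lost in 5 alternatives) and Zfyve9, which encodes the Smad anchor SARA (0.211 ± 0.141 against 1.89 ± 1.29 CPM in young MPP, -3.07 ± 0.62, adjusted p = 0.0019, and 0.06 with limma-voom).

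Of 9 listed BMP response genes only Id2, Smad6 and Smad7 passed the filter on low counts. In aged LT-HSC 2 were higher and 1 was lower, beside 9.98% and 8.87% of all genes. The lower gene was Smad6, given above with the inhibitors. In aged ST-HSC 1 was higher (3.58% of all genes) and in aged MPP 2 were higher (5.53%). Id2, an inhibitor of DNA binding, was at 41.3 ± 5.72 CPM in aged LT-HSC, against 11.0 ± 4.72 CPM in young LT-HSC (1.90 ± 0.47, adjusted p = 0.0073), and at 68.0 ± 41.2 CPM in aged MPP, against 5.97 ± 2.05 CPM in young MPP (3.51 ± 0.51, adjusted p = 0.00016). Aged MPP library 4 held 130 CPM of Id2 and the other 3 aged MPP libraries 45.0 to 51.9 CPM, all above the young libraries. Library 4 was also the highest of the 4 in markers of B and plasma cells (0.873%, against 0.182 to 0.330%). The same held for monocytes and macrophages (0.0575%, against 0.0211 to 0.0324%) and T and NK cells (0.00580%, against 0.000558 to 0.00163%). It was not the highest in the other marker lists. The part of these cells in the Id2 level was not tested. Id1, Id3 and Id4, the other inhibitors of the family, averaged at most 0.931 CPM in any group and were not tested.

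Of 10 tested TGF-beta response genes (13 listed), 6 were higher and 1 lower in aged LT-HSC, 4 higher in ST-HSC and 5 higher in MPP, beside 9.98% higher and 8.87% lower of all genes in LT-HSC, 3.58% higher in ST-HSC and 5.53% higher in MPP. Their median change was 0.83, 0.54 and 0.27, beside 0.00, 0.01 and 0.00 over all genes. Several have other known inducers, and Skil, Smad7, Pmepa1, Tgif1 and Ltbp3 stand in a second list too. Cdkn1a, the cell cycle inhibitor p21, was at 42.4 ± 11.3 CPM in aged LT-HSC, against 6.26 ± 2.48 CPM in young LT-HSC (2.75 ± 0.27, adjusted p = 7.7e-08), 28.6 ± 3.72 and 6.28 ± 1.96 CPM in aged and young ST-HSC (2.18 ± 0.27, adjusted p = 2e-05), and 53.5 ± 6.25 and 14.9 ± 5.17 CPM in aged and young MPP (1.84 ± 0.25, adjusted p = 3.5e-05). Klf10, an early TGF-beta response gene, was higher in aged LT-HSC (1.10 ± 0.19, adjusted p = 0.00034) and ST-HSC (0.88 ± 0.19, adjusted p = 0.0085). Without the 3 doubted libraries the ST-HSC changes of Klf10, Smad7, Skil and Smad1 were 0.65, 0.44, 0.60 and 0.24 and none was called (adjusted p = 0.15, 0.15, 0.13 and 0.21). Tgfbi, a secreted matrix protein gene, was higher in aged LT-HSC (0.97 ± 0.20, adjusted p = 0.0013) and MPP (0.94 ± 0.21, adjusted p = 0.0054). Bhlhe40, a transcriptional repressor gene, was higher in aged LT-HSC (1.56 ± 0.38, adjusted p = 0.0068) and MPP (1.42 ± 0.42, adjusted p = 0.036), with the MPP call lost in 11 alternatives.

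**Figure D5:**
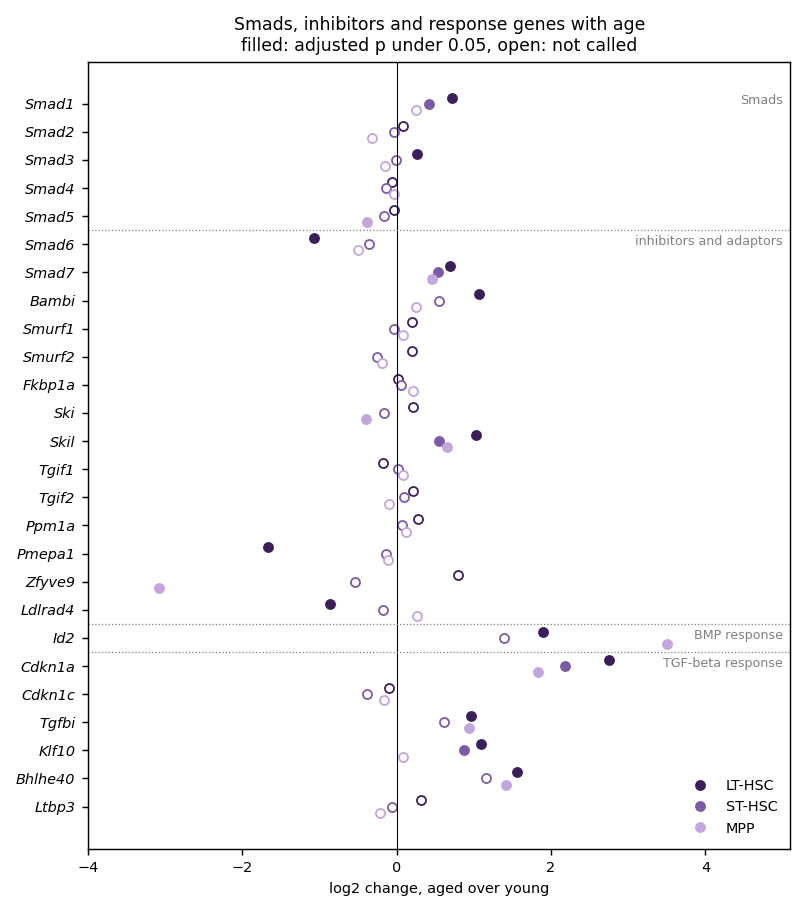
Log2 change, aged over young, of Smads, inhibitors and adaptors, and BMP and TGF-beta response genes in LT-HSC, ST-HSC and MPP. Filled points had an adjusted p under 0.05, open points were not called, and a gene in 2 lists is drawn once. Smad7, Skil and Cdkn1a are filled and right of 0 in all 3 populations, and Zfyve9 in MPP stands farthest left at -3.07.

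Some reads of 4 receptors could come from overlapping genes. By GENCODE M21, 290 bases of Bmpr1a exons overlap the antisense gene Gm17110, 446 bases of Acvr2a exons overlap Orc4 and 61 bases of Eng exons overlap Fpgs, all on the opposite strand, which the library chemistry described in the labels does not mark. On the same strand, 297 bases of Tgfbr3 exons overlap Gm43422. Reads in these stretches cannot be told apart between the genes, and the overlap with Bmpr1a covers 290 of its 6351 exon bases.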

How the data were processed

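RNA-seq was measured in 24 libraries, 6 groups of 4. Per the labels' protocols, first strands were primed with not-so-random primers, second strands were made with Klenow fragment, and the kit was Nextera XT. No molecular identifiers were added, and read totals are not counts of independent molecules. The submitters' processing notes name the tools Trim Galore, HISAT2 and featureCounts and the build mm10. Their versions, the annotation and the strand option were not given in the sources used here. Raw counts by gene symbol, whole numbers with no normalization, were deposited by the authors. Of the 24421 gene lines, 27 symbols had been turned into dates, with at most 0.192% of a library's counts.

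Genes passing filterByExpr (14205, with 99.9% of counts) entered the test, run in edgeR 4.0.16 (R 4.3.3): TMM factors, robust quasi-likelihood fit, 1 mean per group over all 24 libraries, 18 residual degrees of freedom, 12 contrasts, two-sided tests, Benjamini-Hochberg adjustment over all tested genes, threshold 0.05. The biological coefficient of variation was 0.213. Levels are TMM-scaled CPM computed here. Exon lengths and coordinates are from GENCODE M21 (GRCm38, which is mm10), promoters from RefSeq GRCm38.p6.

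Alternatives were RLE size factors, no count filter, DESeq2 1.42.0, limma-voom (limma 3.58.1), a fit to only the groups compared, the replicate number as a block, each library left out in turn, and 3 doubted libraries left out together. The 9 receptors, the gene lists and the alternatives were chosen with earlier results of these data known. Named pathway genes are the up to 4 called members of smallest p of each list and age comparison. Profile likeness used log2 of mean CPM plus 0.5.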

Additional observations from a re-analysis of the deposited data

Results flagged for a closer look

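The age change differed between LT-HSC and MPP for 4 receptors by a test of the difference itself, LT-HSC minus MPP on the log2 scale. The differences were -2.11 for Bmpr1a, 0.57 for Bmpr2, 0.55 for Acvr1b and 0.51 for Eng. Of 23 alternatives, 5 lost the call of Bmpr1a, 8 that of Bmpr2 and 13 that of Acvr1b, and none lost that of Eng. Bmpr1a was higher with age in both populations, by 3.94 in LT-HSC and 6.06 in MPP. The age difference of Bmpr2 was 0.39 in LT-HSC and -0.18 in MPP, that of Acvr1b was 0.26 in LT-HSC and -0.29 in MPP, and that of Eng was 0.01 in LT-HSC and -0.49 in MPP. Of the 8 values, those of Bmpr1a in both populations, Bmpr2 in LT-HSC and Eng in MPP were called on their own. No library stood apart from the other 3 by Dixon's test in the 54 sets of 4 values (9 receptors in 6 groups).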

How the results depend on the processing

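Over 108 results (9 receptors in 12 comparisons) and 1834 alternative values, none changed direction where called, 57 calls were lost and 17 gained. Bmpr1a kept its age call in all 3 populations under every alternative run (highest adjusted p = 9.5e-05, in LT-HSC). In place of 2 receptors called with age in LT-HSC, 4 were called in a fit to the LT-HSC groups alone. Without the 3 doubted libraries (aged ST-HSC 2 and 3, young LT-HSC 1), 1 in place of 2 was called with age in ST-HSC, and 1 in place of 0 (Bmpr2, 0.65) for LT-HSC minus ST-HSC. The cause was not tested. Leaving out 1 library gave 1 to 2 receptors with age in LT-HSC, 0 to 1 for LT-HSC minus ST-HSC, 2 to 5 (4 with all libraries) for LT-HSC minus MPP, and 3 to 5 (5) for aged ST-HSC against aged MPP.

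Counts over all genes moved too. With age in ST-HSC (823 genes), 534 were called in a fit to those groups alone, 453 without the 3 libraries, and 503 to 713 without 1 library. With age in MPP (1391), leaving out 1 library gave 914 to 1358. For LT-HSC minus ST-HSC (575), DESeq2 gave 944, the fit without the 3 libraries 897, and leaving out 1 library 377 to 822. For ST-HSC minus MPP (66), DESeq2 gave 180, limma-voom 18, a fit to those groups alone 25 and the fit without the 3 libraries 24. Aged ST-HSC against aged MPP (4244) gave 2698 without the 3 libraries. Fewer samples enter the fits that leave libraries out.

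Whether same-numbered libraries share a mouse could not be settled from the data. Between populations of one age their deviations correlated by -0.0399 to 0.156. Of 24 pairs, 6 were over 0.1 and 9 correlated best with their own number. Same-numbered libraries of different ages, which come from different mice, correlated by -0.0410 to 0.114. With the replicate number as a block, the 1 receptor call that changed was Tgfbr1 in young LT-HSC against young MPP (-0.40, adjusted p = 0.04). In population comparisons and differences of age changes the block was set within each age. For the age comparisons it joined same-numbered libraries of both ages. Counts of receptors called with age stayed at 2, 2 and 3, but this cannot speak to shared mice, since those libraries come from different mice. Of 54 mean levels, none moved by more than 1 SD on plain library totals. Depth limits Bmpr1a most, with 9 reads over the 4 young MPP libraries.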
